A study of Homo sapiens with 6 samples.

Results

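The genes described here are 7 genes of cholesterol export and of the liver X receptors (LXRs): NR1H2, NR1H3, ABCA1, ABCG1, APOE, SMPDL3A and SCARB1. They were chosen by symbol from the 30483 genes of the table that holds all libraries, and each symbol matched 1 row. RNA was sequenced from A549, an established human lung adenocarcinoma line, in 3 libraries of cells given 5 µM anlotinib and 3 of cells given the solvent DMSO, and the protocol on all 6 samples states 48 h. Anlotinib is a small molecule that blocks receptor tyrosine kinases, among them VEGF receptors. Both groups are 1 unmodified line grown in RPMI-1640 with serum. Whether each library had its own culture is not stated, and the p-values cover the spread between libraries, which may be technical.

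Cells cannot break down the sterol ring, so cholesterol in excess has to be esterified or exported. LXRα, encoded by NR1H3, and LXRβ, encoded by NR1H2, are nuclear receptors that bind oxysterols, pair with the retinoid X receptor and switch on genes of export. Among these, ABCA1 hands cholesterol and phospholipid to lipid-poor apolipoprotein A-I, ABCG1 passes sterols on to HDL, and APOE is a secreted acceptor of lipid. SMPDL3A, a secreted phosphodiesterase related to acid sphingomyelinase, is an LXR target known from human macrophages. SCARB1 encodes the HDL receptor SR-BI, through which cholesterol moves in both directions. SREBP2, the factor that switches on cholesterol synthesis and uptake, responds to low sterol, and its gene SREBF2 carries the microRNA miR-33a in an intron, which represses ABCA1.

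Sequences of ABCA1 are shown because it is the member with matches to both an LXR element and the miR-33 seed. The first is its promoter, from 250 bases before to 50 after the start site, in the RefSeq table on GRCh38.p14 (chr9:104928106-104928405, minus strand), with capitals for an E-box and, after it, for the LXR element.
ABCA1 promoter: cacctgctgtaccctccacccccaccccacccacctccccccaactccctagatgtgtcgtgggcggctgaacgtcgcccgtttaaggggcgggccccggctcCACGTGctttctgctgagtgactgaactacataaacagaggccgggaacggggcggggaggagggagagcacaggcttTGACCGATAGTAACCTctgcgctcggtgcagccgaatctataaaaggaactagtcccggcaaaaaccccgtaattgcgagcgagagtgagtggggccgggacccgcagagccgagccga
The element searched was a direct repeat, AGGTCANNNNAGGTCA, on both strands with up to 2 mismatches among its 12 fixed letters. The match in ABCA1 lies on the strand opposite to the gene, has its first base at position -69 from the start site and has 2 mismatches. Of 35116 promoters in the table, 2.34% held such a match. The E-box, CACGTG without mismatches, has its first base at position -147 and was found in 7.26% of promoters. The table matched 4 members, ABCA1, NR1H2, NR1H3 and APOE, with 9 promoters in all, and ABCA1 alone of them held either motif. The sterol regulatory element searched, TCACNCCAC on both strands, was in 1.13% of promoters and in none of these 9. A match is a description of the letters in this window and says nothing on binding.

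The mature microRNAs of the miR-33 pair, from the same RefSeq release, share 1 seed, in capitals (bases 2 to 8). They lie on chromosomes 22 and 17, within SREBF2 and SREBF1.
hsa-miR-33a-5p: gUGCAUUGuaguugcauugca
hsa-miR-33b-5p: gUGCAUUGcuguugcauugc
The 3′ UTR of the principal ABCA1 transcript in GENCODE 29 is 3313 bases long and holds 4 matches to that seed, at bases 135, 140, 150 and 1475. The windows around the first and the last are printed, with the matches in capitals. They lie at chr9:104784169-104784194 and chr9:104782829-104782854 on GRCh38, minus strand, and the first window also holds the second match, which overlaps the first.
ABCA1 site 1: gtactgatactattCAATGCAATGCA
ABCA1 site 4: ttttttaattgcaaCAATGCAaaagc
Of 2421 genes with a 3′ UTR at least this long, 16.7% held at least 1 match in a stretch of the same length and 0.124% held 4 or more. The 3′ UTRs of the other members held 0 matches, but they are only 143 to 954 bases long. In stretches of those lengths, 0.678% to 4.80% of genes held at least 1 match.

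Values are normalized counts, that is, the reads of a gene divided by 1 size factor per library. The libraries held 13886120 to 15386107 reads assigned to genes, so that 1 read is worth 0.887 to 1.07 normalized counts. Of 15734 genes with a mean of at least 10, 3648 changed at a limma adjusted p under 0.05. That count was 5487 without anlotinib replicate 1, 1972 without anlotinib replicate 2, and 2320, 2272 and 2328 without DMSO replicates 1, 2 and 3. On the main component of variation anlotinib replicate 1 stood nearest to DMSO (19.1, against 36.2 and 41.0 for the other anlotinib libraries). Of 9 lung epithelial and A549 markers 6 were tested, and KRT19 and CDH1 rose while KRT7 fell. CDH1 lost its call without anlotinib replicate 2, DMSO replicate 2 or DMSO replicate 3 (limma adjusted p from 0.0611 to 0.0873). Without anlotinib replicate 1, KRT8 at -0.31 and KRT18 at -0.35 on the log2 scale also passed as lower (limma adjusted p = 0.0387 and 0.0103). SFTPC, below the minimum mean, passed as higher when no minimum was set (limma adjusted p = 0.0115) and when it was 1. The summed level of the 9 was 38662 to 57474 normalized counts with anlotinib and 71647 to 75133 with DMSO, most of it from the keratin genes KRT7, KRT8 and KRT18. The alveolar marker genes SFTPB and SFTPC were near 0, at 4.43 and 7.80 normalized counts with anlotinib and 1.40 and 0.697 with DMSO.

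With anlotinib, 2 of the 7 genes rose in limma, APOE and SMPDL3A, and 0 fell. ABCG1 was the 1 gene lower at an unadjusted p under 0.05, and edgeR, DESeq2 and limma-voom also called 0 lower. SCARB1 was called higher by edgeR and limma-voom, so that they called 3 genes, and without anlotinib replicate 2 limma called 1, APOE. Among all tested genes 10.5% rose and 12.7% fell at the same threshold, or 23.2% together. APOE rose 3.69-fold and SMPDL3A 1.68-fold. Both LXR genes and the exporter genes ABCA1 and ABCG1 did not pass, and neither did SCARB1. All 7 genes passed the minimum mean of 10. The median log2 fold change of the 7 was 0.08, beside -0.02 over all tested genes. The groups did not overlap for 5 members, 3 of them higher and 2 lower, against 40.2% of all tested genes, 18.8% higher and 21.4% lower. In bulk RNA, fewer cells of a type and less RNA per cell cannot be told apart.

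**Figure D1:**
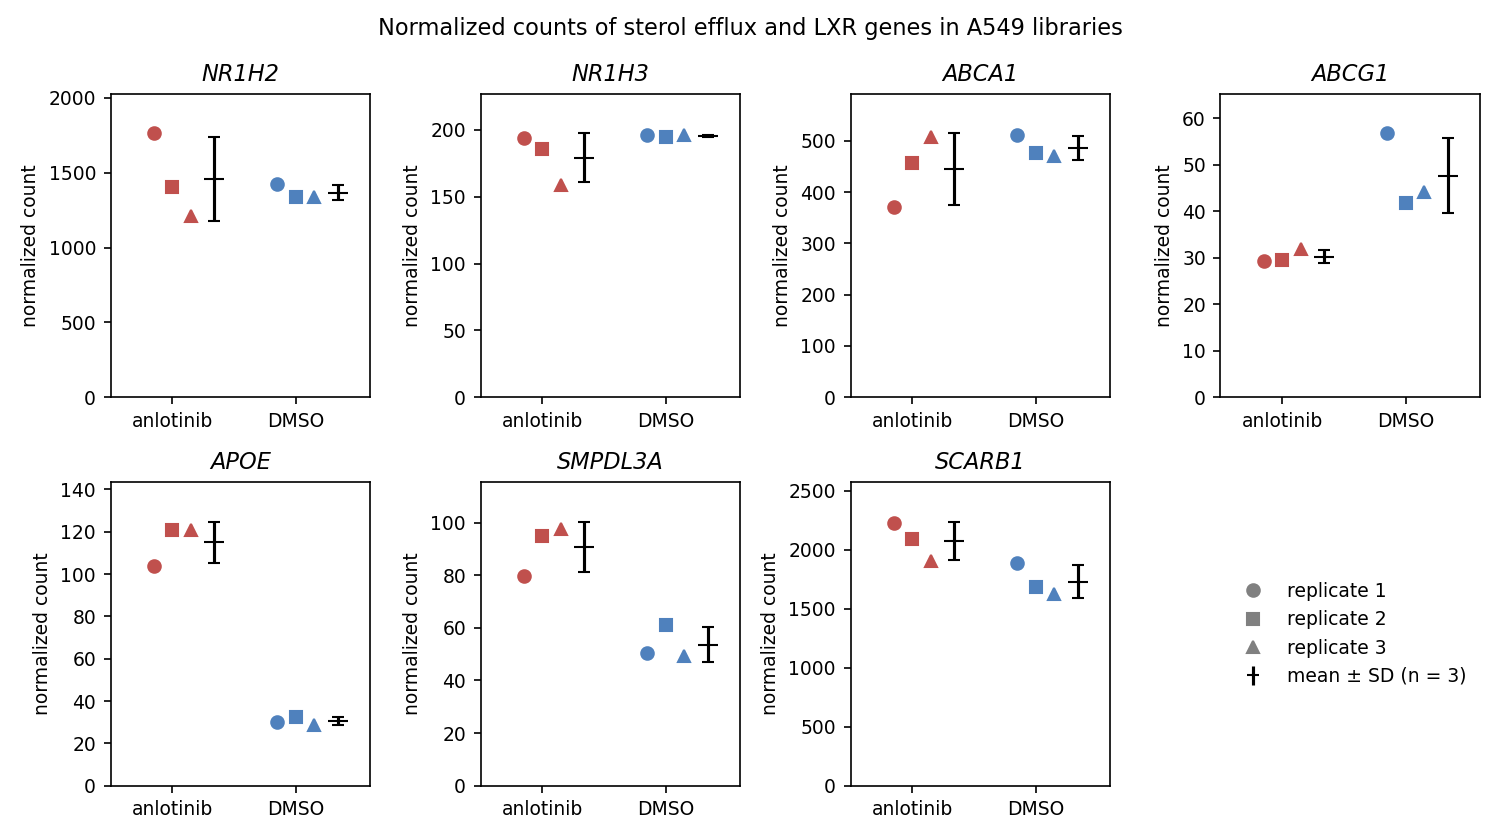
Normalized counts (vertical axis, from 0) of each of the 7 genes in the 3 anlotinib libraries (red, left) and the 3 DMSO libraries (blue, right), with the mean ± SD in black. APOE and SMPDL3A stand higher in every anlotinib library, ABCG1 stands lower, and the groups overlap for NR1H2 and ABCA1.

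NR1H2, encoding LXRβ (chr19:50329653-50382982 on GRCh38), had 1764, 1406 and 1211 normalized counts in the anlotinib libraries, against 1423, 1334 and 1339 in the DMSO libraries. The groups overlapped, and the anlotinib libraries lay on both sides of the DMSO range, with replicate 1 the highest of the 6 and replicate 3 the lowest. The log2 fold change was 0.08 (SE 0.12, 95% interval -0.18 to 0.34, limma adjusted p = 0.673), and it was -0.065 without anlotinib replicate 1. NR1H2 spans 3753 exon bases and shares none of them with the genes it overlaps, which lie on the opposite strand.

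NR1H3, encoding LXRα (chr11:47248300-47269032), had 194, 185 and 159 normalized counts with anlotinib, against 196, 195 and 196 with DMSO. All anlotinib libraries were lower, replicate 1 by about 1 count and replicate 3 by far more than the spread among the DMSO libraries. The log2 fold change was -0.13 (SE 0.13, 95% interval -0.41 to 0.15, limma adjusted p = 0.499). ACP2 on the opposite strand shares 4.17% of the exon bases of NR1H3, and reads there cannot be assigned without strand.

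The ratio of NR1H3 to NR1H2 was formed within each library, with 1 added to each normalized count. Scaling between libraries enters only through that 1. The ratio was 0.110, 0.132 and 0.132 with anlotinib and 0.138, 0.147 and 0.147 with DMSO. The groups did not overlap, with a mean difference of -0.21 on the log2 scale and an exact two-sided permutation p of 0.1, the smallest that 3 against 3 libraries allow.

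ABCA1, the exporter to apolipoprotein A-I (chr9:104781002-104928237 on GRCh38), had 370, 457 and 508 normalized counts with anlotinib, against 512, 475 and 470 with DMSO. The groups overlapped, and anlotinib replicate 1 was the lowest of all 6. The log2 fold change was -0.14 (SE 0.12, 95% interval -0.40 to 0.12, limma adjusted p = 0.451). In fold terms this interval runs from 0.758 to 1.09.

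ABCG1, the exporter to HDL (chr21:42199689-42297244), had 29.3, 29.5 and 31.9 normalized counts with anlotinib, against 56.8, 41.8 and 44.2 with DMSO. Every anlotinib library lay below every DMSO library, as it did for 21.4% of all tested genes. The log2 fold change was -0.63 (SE 0.23, limma adjusted p = 0.0665), which misses the threshold. The gene had 29 to 53 reads per library, and its 95% interval was -1.12 to -0.13 before adjustment.

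The ratio of ABCG1 to ABCA1, formed in the same way, was 0.0815, 0.0665 and 0.0647 with anlotinib and 0.113, 0.0899 and 0.0958 with DMSO. All anlotinib ratios were lower, with a difference of -0.49 on the log2 scale and an exact two-sided permutation p of 0.1, again the smallest possible.

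APOE, the secreted lipid acceptor (chr19:44905754-44909393), had 104, 121 and 121 normalized counts in the anlotinib libraries, against 30.0, 32.6 and 28.8 in the DMSO libraries. Every anlotinib library held more than 3 times the count of any DMSO library. The means were 115 ± 9.67 with anlotinib and 30.5 ± 1.99 with DMSO (SD, n = 3 each), a log2 fold change of 1.88 (SE 0.19, limma adjusted p = 2.03e-05). The authors' deposited table gives 1.92 for the same gene with an adjusted p of 3.06e-10. APOE shares 0.867% of its exon bases with another annotated gene on its strand.

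SMPDL3A, the secreted phosphodiesterase (chr6:122789049-122809720), had 79.7, 95.1 and 97.5 normalized counts with anlotinib, against 50.3, 61.2 and 49.3 with DMSO. The groups did not overlap, with anlotinib replicate 1 and DMSO replicate 2 the nearest to each other. The means were 90.8 ± 9.66 with anlotinib and 53.6 ± 6.60 with DMSO (SD, n = 3 each). The log2 fold change was 0.75 (SE 0.18, limma adjusted p = 0.0115), and the authors' deposited table gives 0.76 with an adjusted p of 0.0271. Without anlotinib replicate 2 the adjusted p was 0.0585.

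The HDL receptor gene SCARB1 (chr12:124776856-124882668) had 2228, 2092 and 1901 normalized counts with anlotinib, against 1883, 1683 and 1620 with DMSO. All anlotinib libraries were higher, with anlotinib replicate 3 only just above DMSO replicate 1. The log2 fold change was 0.26 (SE 0.09, 95% interval 0.06 to 0.46, limma adjusted p = 0.061). The call depended on the method, with adjusted p = 0.039 in edgeR, 0.0364 in limma-voom, 0.0363 with TMM scaling and 0.012 with library totals. It was 0.0486 with the replicate number as a block and 0.0166 without anlotinib replicate 3, while in the authors' deposited table it was 0.0686.

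Levels of different genes can be set side by side only per exon length, here as normalized counts per kb of exon (mean ± SD, n = 3). With anlotinib the order was NR1H2 (389 ± 74.8), SCARB1 (268 ± 21.2), APOE (52.5 ± 4.41), NR1H3 (39.5 ± 4.03), ABCA1 (39.2 ± 6.14), SMPDL3A (38.6 ± 4.11) and ABCG1 (4.94 ± 0.241). NR1H3, ABCA1 and SMPDL3A did not differ beyond their spread. In DMSO the order was NR1H2 (364 ± 13.3), SCARB1 (223 ± 17.7), NR1H3 (43.2 ± 0.152), ABCA1 (42.8 ± 2.0), SMPDL3A (22.8 ± 2.81), APOE (13.9 ± 0.909) and ABCG1 (7.77 ± 1.31). There, NR1H3 and ABCA1 did not differ beyond their spread. APOE stood above NR1H3, ABCA1 and SMPDL3A with anlotinib and below them in DMSO, and ABCG1 stood last in both. The exon length counts every annotated exon, used or not.

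**Figure D2:**
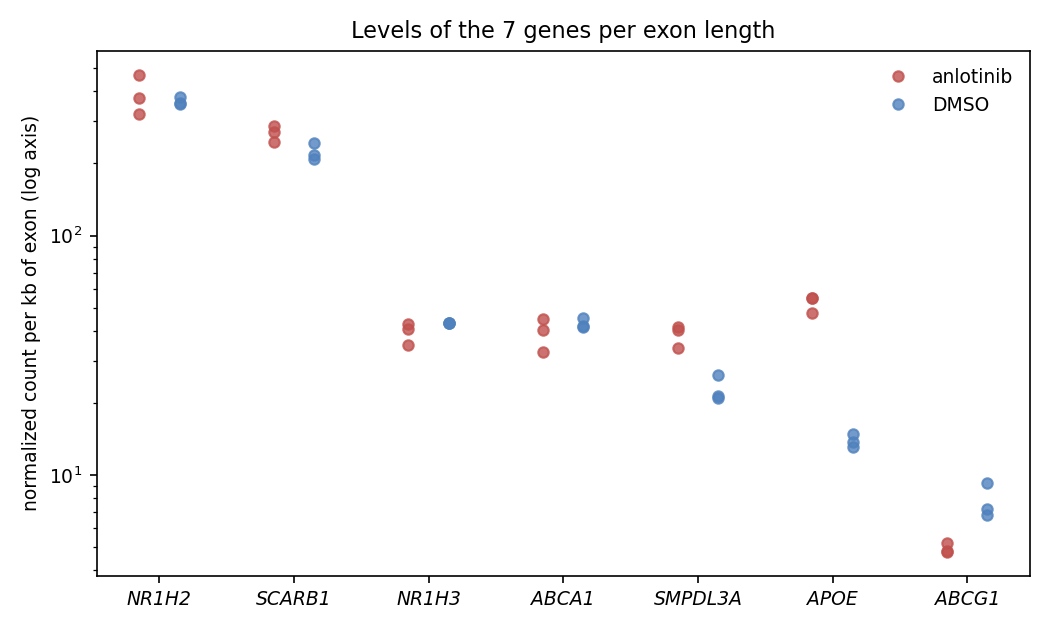
Normalized count per kb of exon (vertical log axis) of the 7 genes, ordered by their mean in DMSO, with 1 point per library, anlotinib in red at the left and DMSO in blue at the right. APOE stands at 52.5 per kb with anlotinib, above NR1H3, ABCA1 and SMPDL3A, and at 13.9 in DMSO, below them.

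Other genes that LXRs are known to switch on were taken from a list of 15. Of these, 9 were tested, 3 rose and 0 fell, beside 10.5% higher and 12.7% lower among all tested genes. The number lower in the list was also 0 at an unadjusted p under 0.05 and in edgeR, DESeq2 and limma-voom. MLXIPL, encoding the glucose-responsive factor ChREBP, had 449, 314 and 426 normalized counts with anlotinib, against 127, 102 and 113 with DMSO, and rose 3.42-fold (limma adjusted p = 8.69e-06). APOC1, the neighbour of APOE in a gene cluster on chromosome 19, rose 1.37-fold (adjusted p = 0.035), a call lost without anlotinib replicate 1, anlotinib replicate 2 or any 1 DMSO library (adjusted p from 0.0749 to 0.107). ACSL3, an acyl-CoA synthetase, rose 1.33-fold (adjusted p = 0.00255).

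MYLIP, encoding the sterol-responsive ubiquitin ligase IDOL, had 141 ± 14.1 normalized counts with anlotinib and 119 ± 4.15 with DMSO (SD, n = 3 each), a log2 fold change of 0.24 that did not pass (limma adjusted p = 0.246). SREBF1, whose SREBP-1c transcript is an LXR target, stood at 0.25 (adjusted p = 0.102) and the lipid transfer gene PLTP at 0.56 (adjusted p = 0.204), and neither passed. SREBF1 did pass with library totals (0.33, adjusted p = 0.0244) and without anlotinib replicate 3 (0.31, adjusted p = 0.0415). LPL, below the minimum mean, passed as higher with a minimum of 1 and with none (adjusted p = 0.00867 and 0.00791). The median log2 fold change of the 9 was 0.25.

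SREBP2 targets were read in the same libraries. All 9 of the 9 reported here rose, with a median log2 fold change of 2.07, and the groups did not overlap for any of them. Among all tested genes 10.5% rose, and for 18.8% the groups did not overlap with anlotinib higher. HMGCS1, at the entry to the mevalonate pathway, rose 6.13-fold, and INSIG1, which holds SREBPs in the endoplasmic reticulum, 4.98-fold. Earlier results of these data had shown this rise, so that the list is no independent evidence, and the difference between the lists was not tested.

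**Figure D3:**
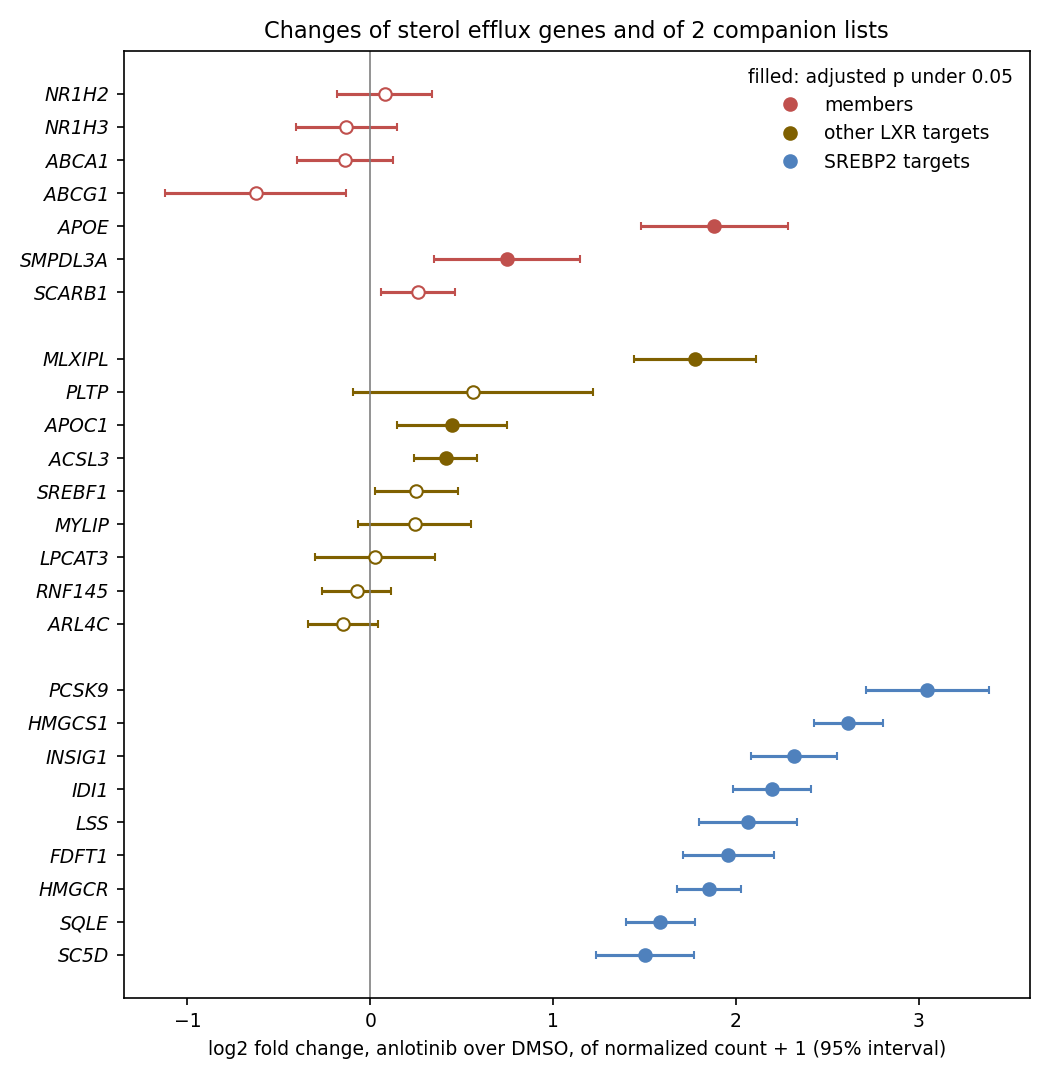
Log2 fold change of anlotinib over DMSO (horizontal axis, with 95% intervals) of the 7 genes in red, of the 9 tested other LXR targets in brown and of 9 SREBP2 targets in blue, filled where the adjusted p was under 0.05. Of the red and brown points, APOE and MLXIPL reach the range of the blue ones, while both LXR genes and ABCA1 have intervals that include 0.

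The host gene of miR-33a, SREBF2, was added because of the seed matches in ABCA1, with its values already seen. It had 4078, 3545 and 3201 normalized counts with anlotinib, against 1625, 1712 and 1927 with DMSO, and rose 2.05-fold (limma adjusted p = 2.44e-05). The stretch annotated as the precursor MIR33A had 1, 1 and 0 reads with anlotinib and 0 in each DMSO library. That of MIR33B had 2, 0 and 3 reads with anlotinib and 2, 3 and 1 with DMSO. Both stretches lie within the host genes, so reads of a precursor and of host RNA cannot be told apart. The mature microRNAs were not measured in these libraries, and their part in the level of ABCA1 was not tested.

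LXRs act with a partner receptor and with cofactors. Of the 13 tested partner and cofactor genes reported here, 2 rose and 11 did not pass, while 10.5% of all tested genes rose. The acetyltransferase gene EP300 rose 1.33-fold (limma adjusted p = 0.00352). NRIP1, a corepressor gene, rose 1.30-fold (adjusted p = 0.0361), which was lost without anlotinib replicate 2, anlotinib replicate 3 or any 1 DMSO library (adjusted p from 0.0802 to 0.149). Without anlotinib replicate 1, NCOA1 passed as higher (0.31, adjusted p = 0.0129) and GPS2 as lower (-0.48, adjusted p = 0.0437). RXRA, the main partner receptor gene, stood at 0.11 (adjusted p = 0.419). The median log2 fold change of the 13 was 0.11.

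Of 8 enzymes that make or modify oxysterols, the ligands of LXRs, only HSD3B7 and SULT2B1 reached the minimum mean. Neither passed, at an unadjusted p under 0.05 or in edgeR, DESeq2 or limma-voom, with log2 fold changes of -0.36 and -0.71 (limma adjusted p = 0.273 and 0.229). CH25H and CYP27A1, which make side-chain oxysterols, averaged 1.58 and 2.80 normalized counts with anlotinib and 0 and 2.43 with DMSO.

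Among 17 tested genes that move, hydrolyse or esterify sterol inside the cell, 5 rose and 1 fell, with a median of -0.05. The shares over all tested genes were 10.5% higher and 12.7% lower. STARD4, a cytosolic sterol carrier and SREBP2 target, rose 3.71-fold (limma adjusted p = 1.83e-06). LIPA, the lysosomal acid lipase that frees cholesterol from its esters, rose 1.42-fold (adjusted p = 0.000725), and SOAT1, which esterifies cholesterol, 1.30-fold (adjusted p = 0.00505). TMEM97 and OSBPL2 were the others that rose. Both lost their call without anlotinib replicate 2 or any 1 DMSO library, with adjusted p from 0.0597 to 0.124 for TMEM97 and from 0.0515 to 0.107 for OSBPL2. CAV1, encoding caveolin-1, was 1.59-fold lower (adjusted p = 9.33e-05). NPC1, which takes cholesterol out of lysosomes, stood at 0.21 (adjusted p = 0.0912), and passed with library totals (0.0143) and without anlotinib replicate 3 (0.0291). The number that fell was 4 without anlotinib replicate 1, where GRAMD1A (-0.42), GRAMD1B (-0.27) and STARD3 (-0.25) passed too, and 2 without DMSO replicate 1, where GRAMD1B did. OSBP passed as higher in edgeR and limma-voom, with TMM scaling, with library totals and without anlotinib replicate 3 (adjusted p from 0.0160 to 0.0479).

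Genes linked to the members by family, name or role were read as well. Over all tested genes 10.5% rose and 12.7% fell. Of 7 tested ABCA and ABCG relatives, ABCA12, a lipid transporter of skin, rose 2.06-fold (limma adjusted p = 0.00526) and the drug exporter gene ABCG2 1.27-fold (adjusted p = 0.0261), while ABCA2 was 1.26-fold lower (adjusted p = 0.033). ABCG2 lost its call without anlotinib replicate 2, DMSO replicate 1 or DMSO replicate 2 (adjusted p from 0.0561 to 0.130). ABCA2 lost its call with library totals (adjusted p = 0.0822) and without anlotinib replicate 2 or 3 or DMSO replicate 1 or 3 (adjusted p from 0.0544 to 0.151). ABCA3 passed as lower without anlotinib replicate 1 (-0.48, adjusted p = 0.00159), and ABCA6 as higher with a minimum mean of 1 and with none (adjusted p = 0.0344 and 0.0354). Of 7 tested genes of HDL and scavenger receptors, LIPG, encoding endothelial lipase, rose 4.13-fold, with 38.3, 37.1 and 42.6 normalized counts with anlotinib and 12.9, 7.14 and 7.19 with DMSO (adjusted p = 0.000734), and PON2 passed as lower without anlotinib replicate 1 (-0.25, adjusted p = 0.0209). Of 5 genes that, like SMPDL3A, are named after sphingomyelin phosphodiesterase, 0 passed in limma, edgeR, DESeq2 or limma-voom. SMPD1, the 1 with an unadjusted p under 0.05, had a log2 fold change of 0.32 (limma adjusted p = 0.0853). SMPD1 did pass with library totals (adjusted p = 0.0264) and without anlotinib replicate 3 (adjusted p = 0.0227), and SMPD4 passed as lower without anlotinib replicate 1 (-0.27, adjusted p = 0.0204).

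APOE and several other members are also known from macrophages, so macrophage markers were read beside them. Of 8 macrophage markers 2 were tested, CD14 and ITGAM, and 0 passed in limma, edgeR, DESeq2 or limma-voom, with ITGAM alone at an unadjusted p under 0.05. Without anlotinib replicate 1 ITGAM passed as higher (limma adjusted p = 0.0468). CSF1R, a receptor of macrophages, averaged 9.69 normalized counts with anlotinib and 1.38 with DMSO, and passed as higher with a minimum mean of 1 and with none (adjusted p = 0.0291 and 0.0388). The summed level of the 8 was 261 to 304 normalized counts with anlotinib and 206 to 258 with DMSO. Most of it came from ITGAM, at a mean of 182 with anlotinib and 146 with DMSO, and CD14, at 84.1 and 77.4. PTPRC, a leukocyte marker, and CD68, used as a macrophage marker, averaged 1.29 and 1.18 normalized counts with anlotinib and 0.342 and 1.38 with DMSO. Markers of fibroblasts and endothelium summed to 74.2 to 104 with anlotinib and to 112 to 116 with DMSO, most of it THY1, the 1 tested gene of 8, which fell (limma adjusted p = 0.0235). That call was lost without anlotinib replicate 2 or any 1 DMSO library (adjusted p from 0.0690 to 0.109). PDGFRB, at 11.4 normalized counts with anlotinib and 3.11 with DMSO, passed as higher with a minimum mean of 1 and with none (adjusted p = 0.0311 and 0.0489). The part of these markers in the values of the 7 genes was not tested.

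For each member, the well-expressed genes with the most similar profile over the 6 libraries were found by Pearson correlation of log2 values, as a description without a test. The nearest to APOE were LIPA and CTSL, both lysosomal hydrolase genes, with r = 0.999 for each. The nearest to SMPDL3A were AREG (0.998) and KMT2D (0.996), and to SCARB1 IGHMBP2 (0.996) and CEBPA (0.991). For ABCG1 they were TADA2A (0.996) and GTPBP3 (0.992), and for ABCA1 SNHG4 (0.985) and RPL36A (0.982). For NR1H3 they were TUFM (0.998) and PTPA (0.996), and for NR1H2 TMEM246 (0.997) and SLC12A7 (0.995). The 6 points share the 2 groups, so the difference between groups is part of each r. Each r was also picked as the highest over many genes on only 6 points. All were 0.982 or more, also for members that did not pass.

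**Figure D4:**
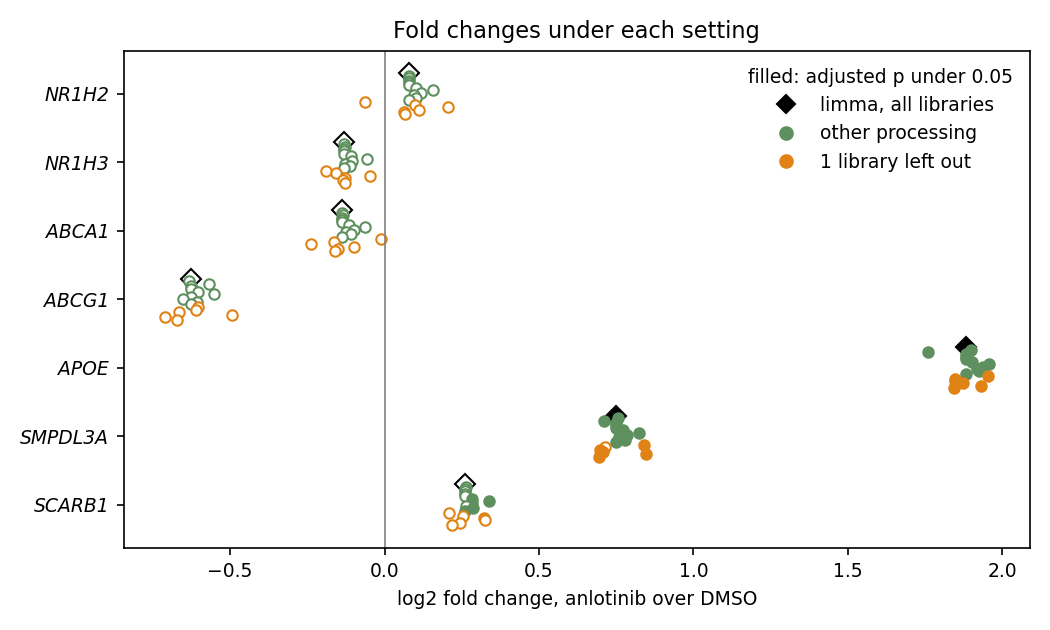
Log2 fold change of anlotinib over DMSO (horizontal axis) of each member in limma with all libraries (black), with other processing (green) and with 1 library left out (orange), filled where the adjusted p was under 0.05. APOE is filled under every setting, SMPDL3A under all but 1, SCARB1 under some, and the other 4 genes under none.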

How the data were processed

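The 6 libraries of A549 RNA were grouped by the treatment label of each sample. Per the labels' protocols, Trizol was used to extract RNA, and a SMARTER mRNA-Seq kit for the libraries. The sources used here name no aligner, counter or strand setting. The submitters' processing notes name the mouse build mm9, while the deposited table holds human genes with GRCh38 coordinates. The deposited signal values are normalized counts, in which all values were whole multiples of 1 step per library within 1e-06. From the values, reads had been divided by a size factor. Per the file headers, the table holds the authors' log2 fold changes. It also holds the authors' p-values, raw and adjusted.

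For log2(normalized count + 1), limma-trend was fitted with the single term treatment, over genes with a mean of at least 10, with Benjamini-Hochberg adjustment over all of them at 0.05. On this scale the fold change of a gene with few reads comes out too small. Reads recovered as whole numbers were tested with edgeR, DESeq2 and limma-voom as alternatives only. The fit was tested on simulated data. Ratios of 2 genes were compared by exact two-sided permutation tests. Other alternatives covered the pseudocount, the minimum mean, TMM and library-total scaling, the replicate number as a block, and each library left out in turn. The members, lists and rules were chosen with earlier results of these data known, and 1 gene each of the LXR partner and SREBP2 target lists is not reported here. Named genes were all 7 members, up to 5 tested genes of each list with the smallest p, some fixed genes of known role and the 2 genes nearest in profile to each member; TMEM97, CH25H, CYP27A1, PTPRC, CD68, SREBF2, MIR33A, MIR33B, SFTPB, SFTPC, LPL, GPS2, GRAMD1A, GRAMD1B, STARD3, OSBP, ABCA6, CSF1R and PDGFRB, outside this rule, were named after their values were seen. Promoters and microRNAs came from RefSeq on GRCh38.p14 and 3′ UTRs from GENCODE 29. Versions were limma 3.58.1, DESeq2 1.42.0 and edgeR 4.0.16 in R 4.3.3, with pandas 2.3.3, matplotlib 3.10.9 and numpy 2.4.6 in Python 3.11.15.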

Additional observations from a re-analysis of the deposited data

How the results depend on the processing

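Of the 7 members, APOE passed under all 17 alternatives (log2 fold change 1.76 to 1.96) and SMPDL3A under 16 of them (0.69 to 0.85). SCARB1 passed under 6 of 17, and ABCG1, tested under 16 because its mean is below 50, passed under 0, with an adjusted p of 0.0632 to 0.216. NR1H2, NR1H3 and ABCA1 also passed under 0, and of the 7 only NR1H2 changed sign, at -0.065 without anlotinib replicate 1 (-0.065 to 0.21 when 1 library was left out). The count of changed members was 1 without anlotinib replicate 2, the lowest, and at most 3 when 1 library was left out. The ratios of NR1H3 to NR1H2 and of ABCG1 to ABCA1 kept their direction with pseudocounts of 0.5 and 5. Leaving out 1 library could not reverse either, because every anlotinib ratio lay below every DMSO ratio. The number of changed genes ran from 1972 to 5487 when 1 library was left out, with 867 to 2271 higher and 1105 to 3216 lower, and was 2320, 2272 and 2328 without DMSO replicates 1, 2 and 3. Scaling by library totals moved all genes up by a median of 0.07 on the log2 scale and gave 2068 higher and 1552 lower, against 1645 and 2003. Over 50 other genes and these alternatives, 33 calls were lost and 13 gained. The 50 are the list genes picked by the naming rule, with TMEM97 and SREBF2. They leave out LPL, GPS2, GRAMD1A, GRAMD1B, STARD3, OSBP, ABCA6, CSF1R, PDGFRB and SFTPC, so the gains given above for these are not counted. Among the 50 genes 6 values changed sign, none of a gene that passed with all libraries. SCARB2 was at 0.016 with library totals. With 1 library left out, SMPD2 ran from -0.18 to 0.068, SMPD3 from -0.39 to 0.085, SMPDL3B from -0.69 to 0.027, CD14 from -0.049 to 0.26 and KRT8 from -0.31 to 0.0022. The cause was not tested. Same-numbered libraries did not deviate together (r = -0.04, 0.03 and -0.0029), and with the replicate number as a block 3552 genes and 3 members passed, the third being SCARB1. Depth limits ABCG1 (29 to 53 reads), APOE (28 to 136) and SMPDL3A (47 to 110) most.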
